A study of Mus musculus with 24 samples.

Results

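The 8 genes Emx1, Emx2, Tbr1, Fezf2, Neurod6, Neurod2, Eomes and Bcl11b are transcription factor genes of cerebral cortex type neurons and their progenitors, measured here in mouse retinal organoids (MROs). They were taken by gene symbol from the 46603 annotated genes among the 126602 features of the count tables, and were chosen by their spread between single organoids in these same data, so that spread is given below as a description, from which no significance is drawn. All 8 passed the filter on low counts, which left 46949 features, 16253 of them annotated genes. In GRCm38 they lie at chr6:85187438-85204462 (Emx1, plus strand), chr19:59458372-59465357 (Emx2, plus), chr2:61802930-61814114 (Tbr1, plus) and chr14:12342094-12348189 (Fezf2, minus). The other genes lie at chr6:55677822-55681263 (Neurod6, minus), chr11:98325415-98329648 (Neurod2, minus), chr9:118478212-118486132 (Eomes, plus) and chr12:107910403-108003602 (Bcl11b, minus).

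The MROs were grown from wild-type E14Tg2a mouse embryonic stem cells. Aggregates were cut into 3 parts on D10, treated with the synthetic retinoid EC23 from D10 to D14 and then kept as untreated controls, with water as the solvent. Single whole MROs were sampled at D20, D22, D25 and D30, with 6 organoids at each timepoint from 1 independent experiment, and their rRNA-depleted RNA was sequenced as strand-specific libraries. All 4 groups shared this genotype and treatment and differed by label in age. With 1 experiment, a difference in harvest or handling between the ages cannot be told apart from age. The sources do not state which organoids came from the same aggregate, so p-values measure the spread between organoids of a single experiment. The total count on features ran from 13634846 to 19477108 per organoid. A level of 3 counts equalled between 0.166 and 0.216 normalized CPM (counts scaled to the library size), a floor that covers counting error only.

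In the embryonic forebrain, Emx1 and Emx2 mark the dorsal telencephalon, the territory from which the cerebral cortex forms. Its progenitors pass through an intermediate state that expresses Eomes and give rise to glutamatergic neurons that express Neurod2, Neurod6 and Tbr1, while Fezf2 and Bcl11b specify the deep layer neurons that project below the cortex. Several of these factors also serve small groups of retinal neurons, Eomes and Tbr1 in subsets of ganglion cells and Neurod2 and Neurod6 in subsets of amacrine cells, and Bcl11b is also a factor of striatal neurons.

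The labelled tissue was checked against its markers first. The list of 12 rod and cone genes was measured in full and summed to between 1088 and 2163 CPM at D20 (median 1812) and to between 7054 and 13880 CPM at D30 (median 10890), with Sag, the rod arrestin, as the largest part of the D30 sum. The retinal factor Crx was at 628 ± 30.4 CPM (SD, n = 6) at D20 and 755 ± 133 CPM at D30. Each of the 24 organoids thus carried photoreceptor RNA, whatever its level of the cortex genes.

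Per kilobase of exon and over all timepoints, Neurod6 was the most abundant of the 8 genes, at 24.8 ± 29.8 CPM per kilobase (SD, n = 24 organoids). It exceeded the next gene, Neurod2 (3.24 ± 3.60), in 20 of 24 organoids. Fezf2 followed at 3.02 ± 1.92 CPM per kilobase, Bcl11b at 1.53 ± 1.21, Emx2 at 1.37 ± 1.57, Eomes at 1.08 ± 0.786, Emx1 at 0.685 ± 0.852 and Tbr1 at 0.597 ± 0.523. Neighbours in this order below Neurod6 differed by less than their spread, and Neurod2 was above Fezf2 in only 11 of the 24 organoids. The order also differed between timepoints. At D22 Fezf2 was first at a mean of 2.61 CPM per kilobase, with Neurod6 at 1.58 (n = 6). At D20 Fezf2 (5.77) was above Neurod2 (2.94), and at D30 Emx2 (2.86) was above Bcl11b (2.02) and Fezf2 (1.69).

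Neurod6 and Neurod2 encode basic helix-loop-helix factors of postmitotic excitatory neurons. Their promoters are shown because the RNA levels of both genes were the most alike of any pair among the 8 (see the correlations over organoids further on). The sequences are RefSeq promoters of GRCm38.p6, the 250 bases ahead of the annotated start, read 5′ to 3′ on the strand of the gene. Neurod6 lies at chr6:55681264-55681513 on the minus strand, outside the exons of the gene, and Neurod2 at chr11:98329646-98329895 on the minus strand, with 3 bases inside its first exon.
Neurod6: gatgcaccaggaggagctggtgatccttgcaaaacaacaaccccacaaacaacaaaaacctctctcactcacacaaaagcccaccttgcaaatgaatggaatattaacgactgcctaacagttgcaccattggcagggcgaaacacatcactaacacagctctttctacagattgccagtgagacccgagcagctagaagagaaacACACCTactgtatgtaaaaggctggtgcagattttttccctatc
Neurod2: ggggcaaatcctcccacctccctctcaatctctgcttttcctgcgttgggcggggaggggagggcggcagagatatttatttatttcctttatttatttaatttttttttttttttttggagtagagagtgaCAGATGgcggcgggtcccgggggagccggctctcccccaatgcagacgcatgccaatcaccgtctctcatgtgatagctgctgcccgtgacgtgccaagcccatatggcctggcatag
Capitals mark matches to 4 short motifs searched on both strands: CAGATG, an E-box preferred by factors of the Neurod and Neurog type, CAGCTG, another E-box, TAATTA, a homeodomain core, and AGGTGT, a T-box core. CAGATG occurred in 14.4%, CAGCTG in 13%, TAATTA in 4.84% and AGGTGT in 11.8% of all 32851 promoters of this length. The Neurod2 window held 1 CAGATG and the Neurod6 window 1 AGGTGT, read as ACACCT on this strand. Among the other 6 genes only the window of Tbr1 had a match, a pair of TAATTA cores at chr2:61804416-61804444 on the plus strand, within an exon of a longer annotated transcript: atccTAATTAatgtctatcTAATTAaatt. These matches describe the sequence and were not tied to any binding.

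Neurod6 ranged widely between organoids of the same age. At D20 it lay between 1.78 and 144 CPM with a median of 18.0, and at D22 between 0.123 and 7.70 CPM with a median of 2.21. At D25 the values ran from 0.976 to 197 CPM with a median of 61.5, and at D30 from 0.776 to 175 CPM with a median of 118. Organoid 6 was the highest at D20 and organoid 1 at D25, whereas organoid 2 of D25 and organoid 6 of D30 had almost none, so that the 4 timepoints overlapped. Within D30 the highest organoid had 226 times the CPM of the lowest, which rested on 14 counts, and within D25 this ratio was 202.

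Neurod2 was high in the same organoids of D20, D25 and D30. Its CPM lay between 0.470 and 30.2 at D20 (median 5.52), between 0.504 and 2.46 at D22 (median 1.29), between 1.60 and 41.7 at D25 (median 11.6) and between 0.166 and 24.4 at D30 (median 17.4). The lowest D30 value again belonged to organoid 6 and rested on 3 counts, at the floor of the measurement. No D22 organoid reached the median of D20, D25 or D30, although the low organoids of these timepoints overlapped with D22.

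The homeobox genes Emx1 and Emx2 were low in most organoids. Emx1 was at 0 counts in organoid 5 of D20 and in organoids 1, 2 and 3 of D22, and it reached 5.12 CPM in organoid 6 of D20, 6.08 CPM in organoid 1 of D25 and 5.16 CPM in organoid 4 of D30. Emx2 was detected in all 24 organoids. Its median was 1.32 CPM at D20 and 0.690 CPM at D22, against 3.11 CPM in D25 and 7.71 CPM in D30 organoids. Its values ran from 0.338 CPM in organoid 3 of D22 to 16.4 CPM in organoid 5 of D30, and organoid 4 of D25 stood out with 14.7 CPM against at most 3.94 CPM in the other D25 organoids. Emx2 shares 264 exon bases with the antisense gene Emx2os, and since the strand setting of the counting is not stated, reads of both genes may be mixed there; Emx2os itself had at most 24 counts and 1.45 CPM in any organoid.

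Tbr1, a T-box factor of early deep layer neurons, had medians of 1.84 CPM at D20, 0.580 CPM at D22, 3.72 CPM at D25 and 5.69 CPM at D30. It was at 0 counts in organoid 1 of D22 and at 1 count in organoid 2 of D20, while organoids 1 and 4 of D25 reached 9.15 and 8.63 CPM. Its D30 values, from 2.49 to 8.51 CPM, had the smallest ratio of highest to lowest among the 8 genes at that age (3.41). Eomes, the T-box factor of intermediate progenitors, had medians of 4.82 CPM at D20, 2.13 CPM at D22, 3.02 CPM at D25 and 5.57 CPM at D30, with the highest value, 14.7 CPM, in organoid 6 of D20. Eomes shares 118 exon bases with an antisense gene, with the same limit on strand.

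The zinc finger factor Fezf2 behaved differently from the others. It lay between 12.4 and 22.6 CPM at D20 (median 17.2), between 4.39 and 11.7 CPM at D22 (median 7.99), between 4.64 and 8.63 CPM at D25 (median 5.89) and between 2.49 and 11.3 CPM at D30 (median 4.56). All 6 D20 organoids were above all D22, D25 and D30 organoids. Bcl11b, the zinc finger factor of neurons that project below the cortex, had a median of 8.15 CPM at D20, 5.87 CPM at D22, 10.9 CPM at D25 and 17.5 CPM at D30. Its highest values were 28.3 CPM in organoid 4 of D20, 43.4 CPM in organoid 1 of D25 and 27.1 CPM in organoid 1 of D30, and its D22 values stayed between 3.81 and 7.59 CPM.

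**Figure D1:**
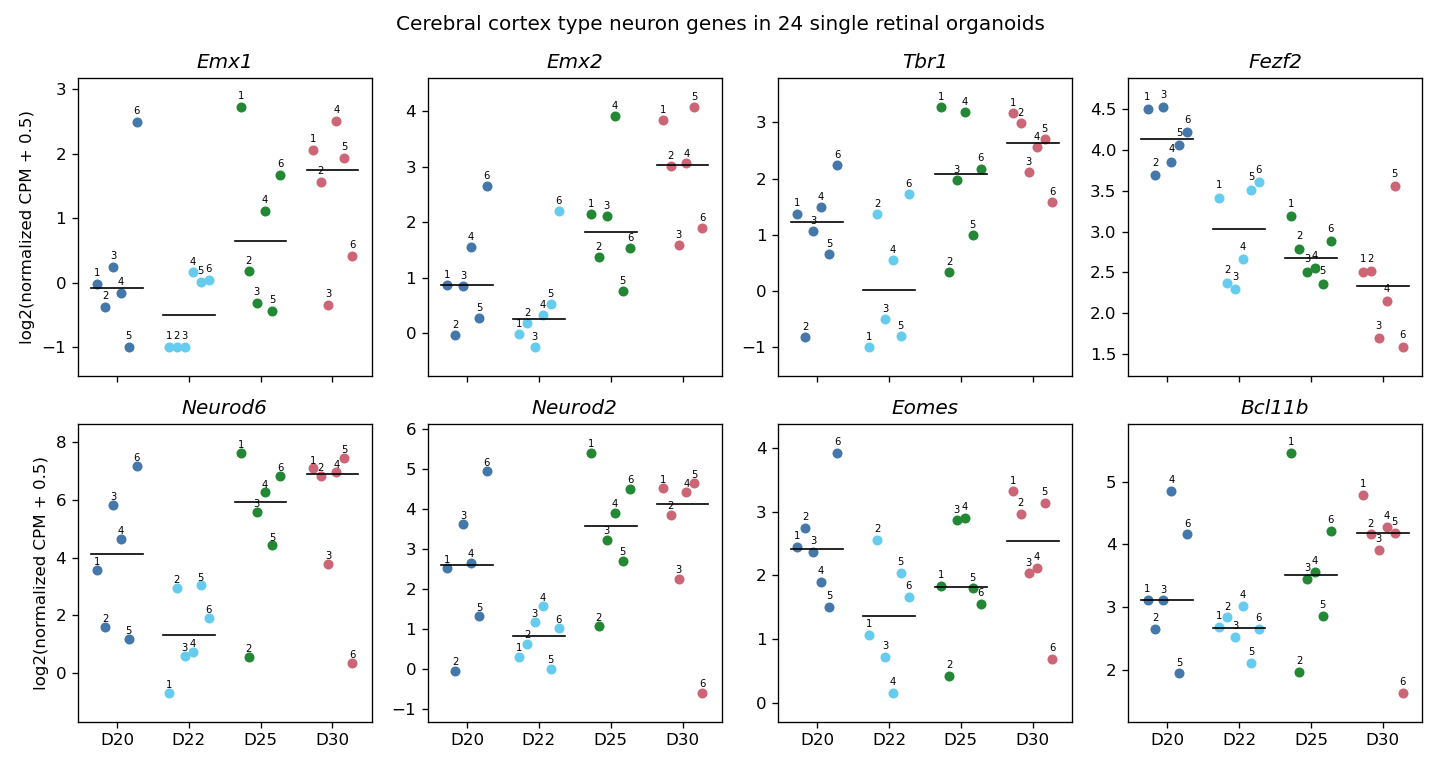
Level of each of the 8 genes in each organoid, as log2 of normalized CPM plus 0.5, by timepoint; points are single organoids with their number and lines are medians of 6 organoids. Neurod6 reached 197 CPM in organoid 1 of D25 and 0.776 CPM in organoid 6 of D30, and Fezf2 was highest in the 6 organoids of D20.

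The spread within timepoints was large beside that of other genes. The pooled standard deviation of log2(CPM + 0.5) was 2.34 for Neurod6, 1.57 for Neurod2 and 0.521 for Fezf2, against a median of 0.306 over the 16253 annotated genes tested. A larger spread was found for 0.0123% of these genes in the case of Neurod6, for 0.148% in the case of Neurod2, and for between 0.849% and 1.66% in the case of Emx1, Emx2, Tbr1, Eomes and Bcl11b, but for 18.6% in the case of Fezf2. Since this spread selected the genes, these shares describe the choice of genes.

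Summed over the 8 genes, organoids held between 27.5 and 239 CPM at D20 (median 68.5), between 14.1 and 32.4 CPM at D22 (median 23.8), between 16.7 and 313 CPM at D25 (median 112) and between 13.7 and 263 CPM at D30 (median 182). Neurod6 alone made up 66.7% of the sum in organoid 5 of D30 and 63.0% in organoid 1 of D25, but 5.67% in organoid 6 of D30 and 5.83% in organoid 2 of D25. These 2 organoids still held Emx2 at 3.21 and 2.09 CPM and Tbr1 at 2.49 and 0.767 CPM. In whole organoids, fewer cells of a type and less RNA per cell cannot be told apart.

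**Figure D2:**
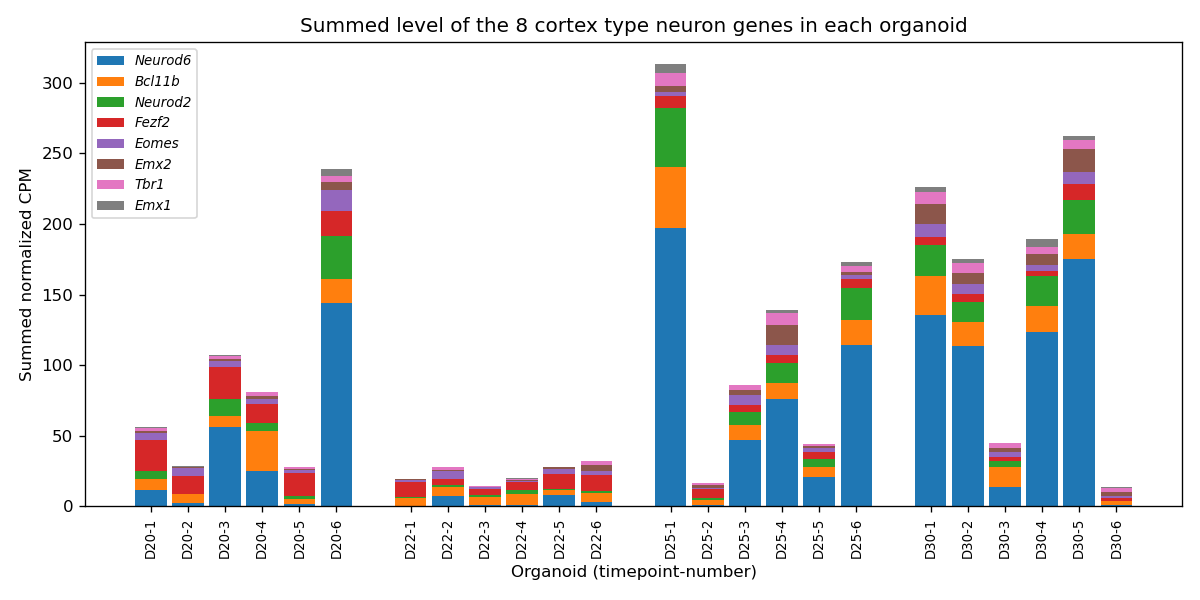
Summed normalized CPM of the 8 genes in each of the 24 organoids, with the share of each gene in colour and bars starting at 0. The sums ran from 13.7 CPM in organoid 6 of D30 to 313 CPM in organoid 1 of D25, and the 6 organoids of D22 stayed at or below 32.4 CPM.

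The first comparison asked what differed between D20 and D22, an interval in which 8 of 12 rod and cone genes rose. Because the 8 genes were chosen by their spread between these organoids and vary together, medians over them are given as descriptions here and below. All 8 genes had lower fitted levels at D22, with log2 fold changes from -3.57 ± 1.02 (SE) for Neurod6 to -0.74 ± 0.65 for Emx2 and a median of -1.21, beside -0.06 over annotated genes. None passed the threshold, an adjusted p below 0.01 in edgeR's quasi-likelihood test with Benjamini-Hochberg adjustment over all features, at which 1.90% of features were called. The count of 0 stood beside 6 of 8 genes with an unadjusted p under 0.05, given without a share over all features and so as a description. DESeq2 called 1 of 8, Fezf2, and 3.42% of features. Fezf2 had a mean of 17.6 ± 4.18 CPM (SD, n = 6) at D20 and 7.95 ± 3.35 CPM at D22, a log2 fold change of -1.14 ± 0.29, with an edgeR adjusted p of 0.0174 and groups that did not overlap. Without organoid 6 of D22 the edgeR adjusted p was 0.00872 and Fezf2 passed. The exact two-sided permutation test over organoids, without adjustment, gave p = 0.00216 for Fezf2, the smallest value that 6 against 6 organoids allow. For the other genes the permutation test gave p of at least 0.04545 (Neurod2). Neurod6 averaged 40.0 ± 54.7 CPM at D20 and 3.41 ± 3.29 CPM at D22 (edgeR adjusted p = 0.0367), and Neurod2 averaged 9.24 ± 11 and 1.34 ± 0.724 CPM (edgeR adjusted p = 0.0363), with overlapping groups in both cases. Much of the change in both genes came from organoid 6 of D20. Without it the log2 fold change was -2.52 for Neurod6 (edgeR adjusted p = 0.153) and -1.91 for Neurod2 (adjusted p = 0.168). Other uncalled genes kept lower fitted levels at D22 without any single organoid, but their log2 fold changes moved widely. Emx1 lay between -2.48 and -0.43, Emx2 between -1.68 and -0.05 and Tbr1 between -1.52 and -0.48. Eomes lay between -1.65 and -0.78 and Bcl11b between -1.23 and -0.55. The call also depended on the fit: Neurod6 (adjusted p = 0.00749) and Neurod2 (adjusted p = 0.00678) passed when edgeR was given the 12 organoids of these timepoints alone. Over 8 alternatives the adjusted p ran from 0.00502 to 0.157 for Neurod6 and from 0.00637 to 0.108 for Neurod2 (edgeR or DESeq2).

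Between D22 and D25, Neurod6 and Neurod2 rose, 2 of the 8 genes, where 5.28% of all features were called and 7.33% of annotated genes were called higher. Neurod6 went from 3.41 ± 3.29 to 76.0 ± 71.6 CPM (SD, n = 6 each), a log2 fold change of 4.50 ± 1.05 (SE, edgeR adjusted p = 0.00466). Neurod2 went from 1.34 ± 0.724 to 15.8 ± 14.6 CPM, a log2 fold change of 3.56 ± 0.80 (edgeR adjusted p = 0.00360). The permutation test gave an unadjusted p = 0.01515 for Neurod6, p = 0.006494 for Neurod2 and at least 0.02814 (Emx2) for the others. Organoid 2 of D25 lay inside the D22 range for both genes, so the groups overlapped, and the other 5 D25 organoids lay above all 6 D22 organoids. Leaving out single organoids kept the log2 fold change between 3.94 and 4.92 for Neurod6 and between 2.99 and 3.82 for Neurod2, but some calls were lost. Without organoid 1 of D22 the edgeR adjusted p was 0.0151 for Neurod6 and 0.0126 for Neurod2, and without organoid 1 of D25 it was 0.0135 and 0.0138. Neurod6 also missed the threshold without organoid 3 (adjusted p = 0.0106), 4 (0.0145) or 6 (0.0131) of D22, and Neurod2 without organoid 5 of D22 (0.0120), in the same edgeR test. Robust estimation of the spread in edgeR gave adjusted p = 0.0271 for Neurod6 and 0.0212 for Neurod2, the range over 8 alternatives being 0.000145 to 0.0276 and 0.000113 to 0.0212 (edgeR or DESeq2).

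The other genes did not pass in this interval. Tbr1 had a log2 fold change of 2.17 ± 0.67 (edgeR adjusted p = 0.0331), Emx2 of 1.95 ± 0.63 (adjusted p = 0.0424), Emx1 of 2.80 ± 0.95 (adjusted p = 0.0539) and Bcl11b of 1.42 ± 0.48 (adjusted p = 0.0549). For Emx2 single organoids moved the fold change both ways. It was 2.90 without organoid 6 of D22 (edgeR adjusted p = 0.00517) and 1.15 without organoid 4 of D25 (adjusted p = 0.263). Omitting single organoids put Emx1 between 1.99 and 3.19, Tbr1 between 1.85 and 2.79 and Bcl11b between 0.78 and 1.62, without a call. Eomes was at 0.63 ± 0.51 and Fezf2, the only gene with a lower fitted level, at -0.36 ± 0.29. Over the 8 genes the median log2 fold change was 2.06, beside 0.10 over the annotated genes tested and -0.05 over all features. Since these genes were chosen by their spread and vary together, this contrast is a description.

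Between D25 and D30 none of the 8 genes was called by edgeR or DESeq2, beside 3.51% and 4.95% of features. None had an unadjusted p under 0.05. Their log2 fold changes ran from -0.27 ± 0.30 for Fezf2 to 0.86 ± 0.58 for Emx2, with a median of 0.29 beside 0.05 over annotated genes. Neurod6 averaged 93.7 ± 70.4 CPM (SD, n = 6) at D30, against 76.0 ± 71.6 CPM at D25, a difference well within the spread.

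Over the whole interval, from D20 to D30, Emx2 rose and Fezf2 fell. These 2 of 8 genes are a share close to the 26.8% of all features called; 25.1% of annotated genes were called higher and 16.7% lower. Emx2 averaged 2.01 ± 1.99 CPM at D20 and 8.58 ± 5.60 CPM at D30 (SD, n = 6), a log2 fold change of 2.08 ± 0.61 (edgeR adjusted p = 0.00760). Its groups overlapped, and leaving out a single organoid moved the adjusted p to between 0.00104 and 0.0259 and above the threshold in 9 of 12 cases, which were organoids 1 to 5 of D20 and organoids 1, 2, 4 and 5 of D30. Emx2 was also not called with robust estimation (edgeR adjusted p = 0.0269) or with annotated genes only (adjusted p = 0.0122), in a range from 0.00160 to 0.0269 over 8 alternatives (edgeR or DESeq2). Fezf2 averaged 17.6 ± 4.18 and 5.14 ± 3.23 CPM, a log2 fold change of -1.78 ± 0.30 (edgeR adjusted p = 1.61e-05), and the 6 D30 organoids lay below all 6 D20 organoids. The permutation test gave an unadjusted p = 0.01299 for Emx2 and p = 0.002165 for Fezf2. Among the uncalled genes the permutation test gave p = 0.008658 for Tbr1 and at least 0.1255 (Emx1) for the others. Neurod6 (log2 fold change 1.22 ± 0.88), Neurod2 (0.63 ± 0.69), Tbr1 (1.56 ± 0.64), Emx1 (1.15 ± 0.83) and Bcl11b (0.465 ± 0.47) had higher fitted levels at D30 and did not pass. Eomes had a lower fitted level (-0.11 ± 0.49) and did not pass. These uncalled fold changes moved widely when single organoids were left out, without a call. Neurod6 lay between 0.95 and 2.28, Neurod2 between 0.38 and 1.499 and Emx1 between 0.84 and 2.80. Tbr1 lay between 1.31 and 1.97, Bcl11b between 0.26 and 0.93 and Eomes between -0.32 and 0.39. The highest values of Neurod6 and Neurod2 came without organoid 6 of D20. The median over the 8 genes was 0.89, beside 0.10 over annotated genes, again as a description.

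A joint test asked whether a gene differed among the 4 timepoints at all, and 27.2% of features were called. Among the 8 genes 4 were: Fezf2 (edgeR adjusted p = 2.03e-05), Emx2 (0.00177), Neurod6 (0.00375) and Neurod2 (0.00420). Tbr1 lay just above the threshold (adjusted p = 0.0114), followed by Emx1 (0.0430), Bcl11b (0.0604) and Eomes (0.148). Tbr1 passed in 3 of 6 alternatives, with DESeq2 size factors, without a filter and with edgeR's own filter, and its adjusted p over the 6 ran from 0.00129 to 0.0484. With robust estimation in edgeR only Fezf2 was called, and Emx2, Neurod6 and Neurod2 were not.

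**Figure D3:**
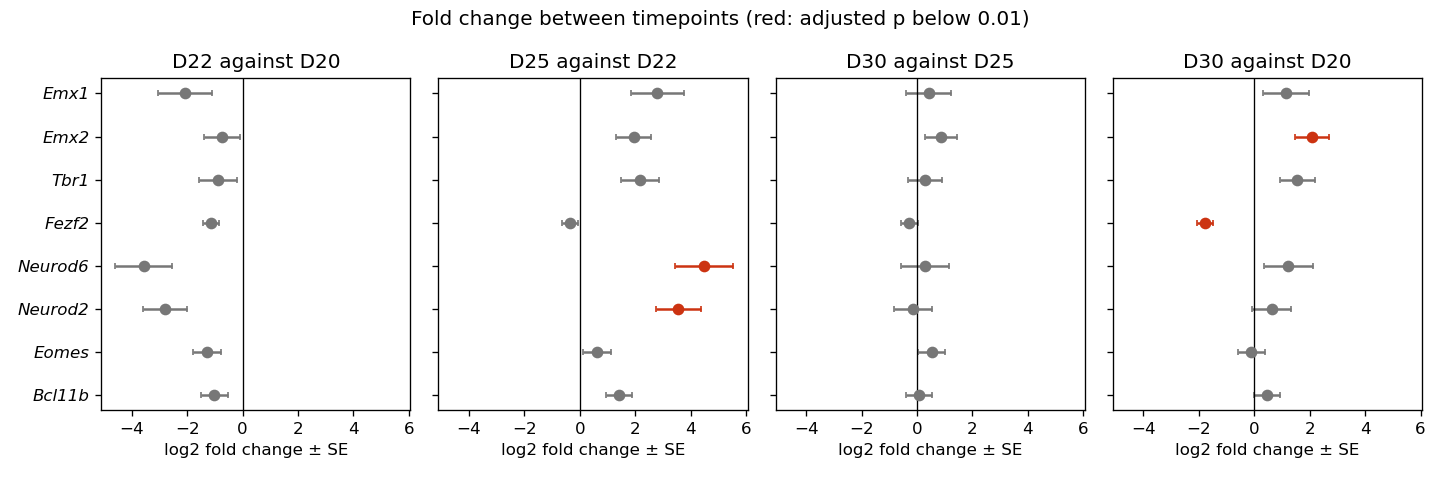
Log2 fold change of each gene with its standard error in 4 comparisons between timepoints (6 organoids each), with genes past an edgeR adjusted p of 0.01 in red. Neurod6 (4.50) and Neurod2 (3.56) passed from D22 to D25, and Emx2 (2.08) and Fezf2 (-1.78) from D20 to D30.

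The 8 genes were then compared with each other over the 24 organoids, after the mean of each timepoint had been subtracted from log2(CPM + 0.5). These correlations are descriptions without a test, since the genes were selected on differences between the same organoids, and all points share a single experiment. Over the 28 pairs Pearson's r ran from 0.244 to 0.887 with a median of 0.606. Neurod6 and Neurod2 were the closest pair (r = 0.887, Spearman's rho = 0.855, n = 24), and r was 0.805 without the 2 organoids farthest from the median of Neurod6, organoid 6 of D30 and organoid 2 of D25. Within D20, D25 and D30 this pair had r of 0.944, 0.968 and 0.995 (n = 6 each), but within D22, where both genes were low, r was -0.289.

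Neurod2 and Bcl11b (r = 0.830, rho = 0.783) and Neurod6 and Bcl11b (r = 0.785, rho = 0.679) came next, with r of 0.775 and 0.618 without the 2 organoids farthest from the median of the first gene. The dorsal genes Emx2 and Tbr1 had r = 0.734 (rho = 0.759), and Emx1 and Neurod2 r = 0.744 (rho = 0.854). The 7 pairs with Fezf2 had a median r of 0.44, between 0.244 for Tbr1 and 0.513 for Emx2, and the other 21 pairs a median of 0.654, with 0.368 for Emx1 and Eomes as the lowest. Without subtracting timepoint means, the pairs with Fezf2 had a median r of 0.014 and the other 21 pairs a median of 0.729.

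**Figure D4:**
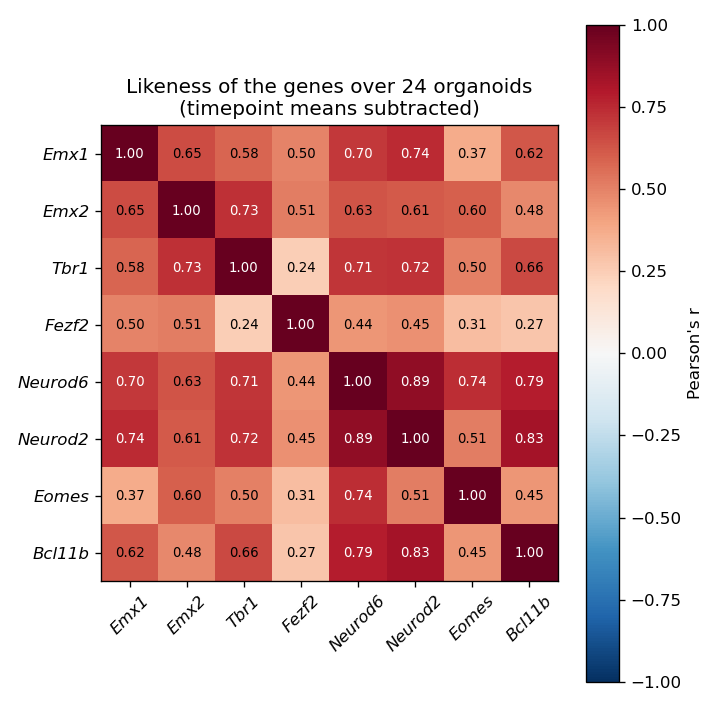
Pearson's r between the 8 genes over 24 organoids, on log2(CPM + 0.5) with timepoint means subtracted. Values run from 0.244 (Tbr1 and Fezf2) to 0.887 (Neurod6 and Neurod2); the pairs with Fezf2 have a median of 0.44.

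To find the genes with the most similar pattern, all 12579 annotated genes outside the 8 with 50 or more normalized counts on average were ranked by their correlation with the mean standardized profile of the 8 genes over the 24 organoids. The closest was Opcml, a cell adhesion molecule of neurons (r = 0.959, rho = 0.946). Tnfrsf19, a receptor of the TNF receptor family, followed (r = 0.941), then the sorting receptor Sorl1 (0.931), the nuclear factor Nfix (0.927), the calcium channel Itpr1 (0.926) and Fam49a (0.922). The axon guidance and adhesion genes Chl1 (0.921), Plxna4 (0.917) and Sema3c (0.909), together with Tmem132b (0.910), Plppr4 (0.908) and the POU factor Pou3f3 (0.907), completed the 12 closest, with rho between 0.856 and 0.946. Without the 2 organoids farthest from the median of the profile, organoid 6 of D30 and organoid 2 of D25, r of these 12 genes stayed between 0.857 and 0.943.

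Opcml, the closest gene, lay between 1.88 and 31.9 CPM at D20 (median 6.54) and between 2.09 and 11.5 CPM at D22 (median 4.68). At D25 it lay between 5.23 and 154 CPM (median 46.4) and at D30 between 5.43 and 131 CPM (median 111). As for Neurod6, organoid 6 was the highest at D20 and organoid 1 at D25, and organoid 2 of D25 and organoid 6 of D30 were the lowest of their timepoints. Other extremes differed: at D30 Opcml was highest in organoid 1 (131 CPM), with organoid 5, the highest for Neurod6, at 111 CPM below organoids 1, 2 and 4, and at D22 it was highest in organoid 6 and lowest in organoid 3, against organoids 5 and 1 for Neurod6. The lowest at D20 was organoid 2 for Opcml and organoid 5 for Neurod6.

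For single genes, the 3 closest were Opcml (r = 0.947), Pou3f3 (0.943) and Gm3764 (0.942) for Neurod6, and Camkv, a kinase-like protein of synaptic vesicles (0.935), Plxna4 (0.923) and Plppr4 (0.913) for Neurod2. Emx1 was closest to Pik3cd (0.852), Rgs6 (0.834) and Itpr1 (0.831), and Emx2 to Chst2 (0.876), Rspo3, a secreted activator of Wnt signalling (0.849), and Tnfrsf19 (0.849). Tbr1 was closest to Scn2b (0.846), Clstn2 (0.846) and Cd200 (0.820), and Eomes to the netrin receptor gene Dcc (0.813), Cpne2 (0.795) and Ctnnb1 (0.790). Bcl11b was closest to Gda (0.948), Dcx, a microtubule protein of young neurons (0.944), and Sox1 (0.943), and Fezf2 to Fam167a (0.830), Anxa7 (0.799) and Ano3 (0.793). All are Pearson's r over 24 organoids, and rho ran from 0.695 for Ano3 to 0.924 for Gda.

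Other genes of the same lineage were described from lists of markers, chosen with earlier results of these data known. The profile itself rests on genes chosen by their spread between the same organoids. Counts of list genes that follow it are therefore descriptions and no independent check of cell type. Of 18 genes of postmitotic excitatory projection neurons, all measured, 13 had r over 0.5 with the profile of the 8 genes (median r 0.786), against 12.3% of 16245 annotated genes (median r 0.10), a share that stands beside each list below. Nfix, Bcl11a, the paralogue of Bcl11b (0.859), and Tiam2 (0.843) were the highest. Neurod1 (r = -0.640), Slc17a7 (-0.233), Nptx1 (0.204), Dpy19l1 (0.238) and Slc17a6 (0.388) were the exceptions. Neurod1 and the vesicular glutamate transporter Slc17a7 are also strongly expressed by photoreceptors.

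From D22 to D25, 8 of these 18 genes rose, beside 7.33% of annotated genes called higher and 2.92% called lower, and their median log2 fold change was 1.19. The adaptor gene Sla went from 0.311 to 21.6 CPM on average (log2 fold change 6.11 ± 1.23, edgeR adjusted p = 0.00128). The largest changes after it were those of the transcription factor gene Mef2c (5.16 ± 0.95, adjusted p = 0.000530), Mpped1 (4.37 ± 0.89, adjusted p = 0.00147) and Tiam2 (4.21 ± 0.91, adjusted p = 0.00246), all in edgeR. From D20 to D30, 6 rose and 1 fell (median log2 fold change 1.37), beside 25.1% and 16.7% of annotated genes, whose median was 0.10 in both comparisons. The calmodulin-binding postsynaptic protein gene Nrgn had a log2 fold change of 5.55 ± 0.92 and the kinase gene Camk2a of 4.43 ± 0.72. Neurod1 and Zbtb18, the most abundant of the list per kilobase, passed in neither comparison.

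Deep layer and upper layer genes gave a mixed picture. Of 14 deep layer genes, 6 had r over 0.5 with the profile (median 0.388); 4 rose from D22 to D25 (median log2 fold change 0.64), Lmo3 (4.18 ± 1.00), the synaptotagmin gene Syt4 (1.63 ± 0.41), Crym (0.87 ± 0.19) and Pcp4 (0.56 ± 0.14). Crym and Pcp4 had r of -0.191 and -0.249 with the profile. From D20 to D30 5 of the 14 deep layer genes rose and 2 fell (median 0.48). In that comparison 25.1% of annotated genes were called higher and 16.7% lower, and from D22 to D25 7.33% and 2.92%. Of 12 upper layer genes, 8 had r over 0.5 (median 0.603), with Pou3f3 (0.907) and the ephrin receptor gene Epha3 (0.846) at the top. Pou3f3 rose from D22 to D25 (log2 fold change 3.91 ± 0.84, edgeR adjusted p = 0.00238). Rorb, a nuclear receptor of layer 4 neurons and also of the retina, had r of -0.614 and fell in the same interval (-0.51 ± 0.09). The median log2 fold change of the upper layer list was 0.32 in this interval, and from D20 to D30, where 1 gene rose and 3 fell, it was -0.12.

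The lists of progenitor genes differed from each other. Of 12 genes of dorsal telencephalic progenitors 8 were tested and 5 had r over 0.5 (median 0.527), led by the LIM homeobox gene Lhx2 (0.757), which retinal progenitors and glia also express. The list median of log2 fold change from D22 to D25 was -0.05, and Hopx (0.40 ± 0.18, edgeR adjusted p = 0.168) and Lhx2 (-0.19 ± 0.20, adjusted p = 0.606), its most abundant genes per kilobase, did not pass; from D20 to D30 Hopx rose (log2 fold change 1.16 ± 0.19) and Gli3, the repressor that sets dorsal identity, fell (-1.55 ± 0.22), with a list median of -0.01. Of the Wnt genes of the cortical hem, Wnt3a had at most 4 counts in an organoid and Wnt8b up to 119. Wnt8b, chosen after its values were seen, followed Emx2 over organoids (r = 0.807, rho = 0.662, r = 0.704 without the 2 organoids farthest from the median of Emx2, n = 24). Of 12 genes of intermediate progenitors and newborn neurons 11 were tested and 2 had r over 0.5 (median 0.162). From D22 to D25, 3 fell and 1 rose (median log2 fold change -0.58), beside 2.92% and 7.33% of annotated genes. From D20 to D30, 7 fell and 1 rose (median -1.47), beside 16.7% and 25.1%. Neurog1 (-4.58 ± 0.56) and Neurog2 (-3.25 ± 0.23), proneural genes that the retina also uses, were among those that fell.

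**Figure D5:**
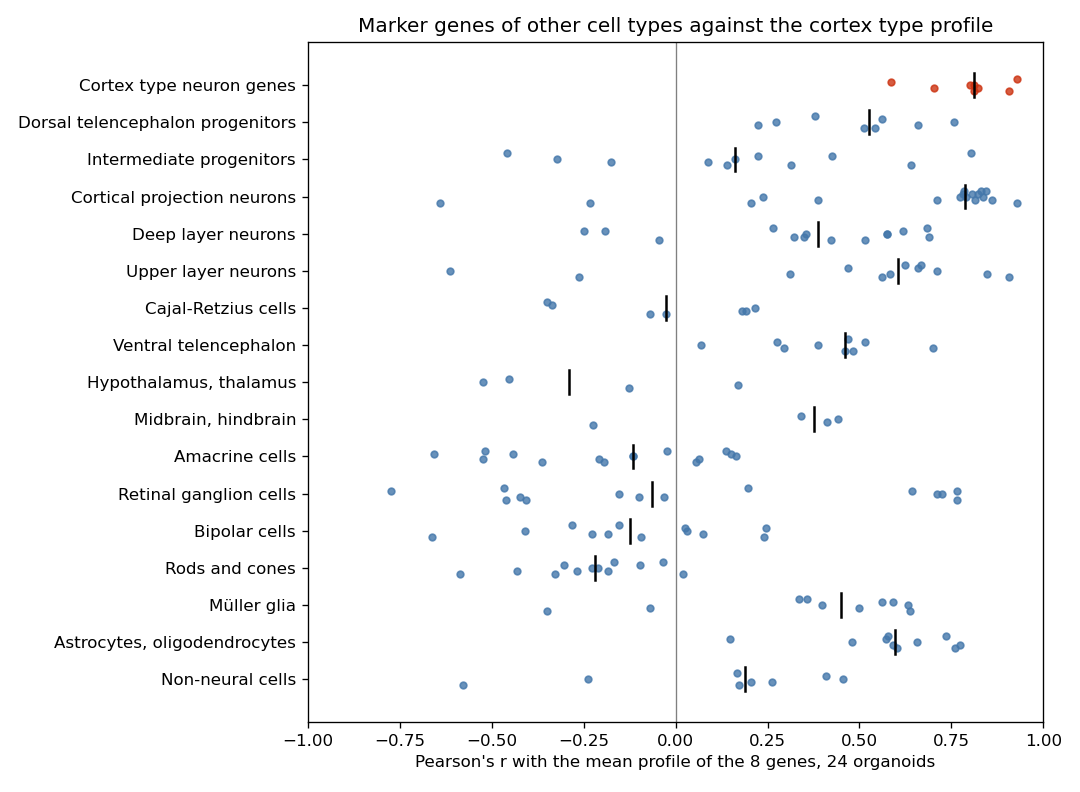
Pearson's r over 24 organoids between each tested gene of the marker lists and the mean profile of the 8 cortex genes, with points for genes and black lines for list medians. The 8 genes themselves (red) are part of the profile; the list of projection neurons has the highest of the other medians (0.786), and rods and cones lie around or below 0 (median -0.218).

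Genes of neighbouring brain regions also varied between organoids. Of 13 genes of the ventral telencephalon and its interneurons, 9 were tested. The sum of all 13 lay between 20.6 and 125 CPM at D20 (median 21.7) and between 6.55 and 15.4 CPM at D22 (median 12.3). At D25 it lay between 7.75 and 136 CPM (median 34.5) and at D30 between 5.60 and 224 CPM (median 121). Dlx1, a homeobox gene of interneuron precursors, made up the largest part of this sum, between 45.2% at D25 and 67.2% at D22. Whether its RNA came from cells of the ventral telencephalon was not tested. Nkx2-1 and Lhx8, which define the most ventral domain, had at most 5 and 9 counts in an organoid. They were at 0 in 22 and 23 of 24 organoids. Lhx6 and Gsx2, also below the filter, reached 19 and 22 counts and were at 0 in 9 and 11. Of the 9 genes 2 rose from D22 to D25, Sp8 (log2 fold change 4.66 ± 1.20, edgeR adjusted p = 0.00967) and Npy (2.41 ± 0.53), and the same 2 rose from D20 to D30, a share below the 25.1% of annotated genes called higher in that comparison (7.33% from D22 to D25). The list medians of log2 fold change were 3.76 and 2.01, and 2 genes had r over 0.5 with the profile (median 0.461). The median of 3.76 rests partly on D22 means within or below the floor of 0.166 to 0.216 CPM. These were Sp8 (0.202 CPM), Sp9 (0.170), Dlx5 (0.0570) and Dlx6 (0.0321).

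Correlations with single ventral genes are given for genes picked after their values were seen. For Bcl11b, r was 0.828 with Sp9 (rho = 0.793), 0.787 with Sp8 (rho = 0.741) and 0.744 with Dlx1 (rho = 0.683), and 0.732, 0.657 and 0.561 without the 2 organoids farthest from its median (n = 24). For Neurod6, r was 0.542 with Sp8 (rho = 0.443) and 0.558 with Dlx1 (rho = 0.423), and 0.237 and 0.198 without the 2 organoids farthest from its median; the difference between the genes was not tested. In organoid 4 of D20, Bcl11b (28.3 CPM), Dlx1 (74.5 CPM) and Sp9 (16.8 CPM) were the highest of their timepoint, while Neurod6 was at 24.7 CPM. In organoid 5 of D30, Neurod6 was the highest of all D30 organoids (175 CPM), and Bcl11b was near its median (17.7 CPM), while Dlx1 was at 6.27 and Sp9 at 2.42 CPM, both the second lowest. The part of ventral cells in the level of Bcl11b was not tested.

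Cajal-Retzius cells, the earliest neurons of the cortical surface, were followed through 10 genes, of which 7 were tested. Their median r with the profile was -0.03 and none was over 0.5. Reln, the secreted glycoprotein of these cells that some retinal neurons also make, made up the largest part of their sum and lay between 127 and 178 CPM at D20 (median 151), 146 and 317 CPM at D22 (median 159), 117 and 706 CPM at D25 (median 219) and 109 and 222 CPM at D30 (median 158). Organoid 4 of D25 had the highest Reln and also the highest Trp73, a p53 family gene, at 7.03 CPM against at most 2.99 CPM elsewhere. The same organoid had the highest Emx2 of D25 (14.7 CPM) and the second highest Tbr1 (8.63 CPM), with Neurod6 at 75.8 CPM. Emx2 and Trp73, chosen after their values were seen, had r = 0.605 (rho = 0.415, n = 24), and r = 0.215 without organoid 4 of D25 and organoid 6 of D22, so the relation rests on these 2 organoids. From D22 to D25, 1 of the 7 genes rose, Car10 (log2 fold change 1.69 ± 0.36, list median 0.60), beside 7.33% of annotated genes. From D20 to D30 3 rose and 1 fell (list median 1.23), beside 25.1% and 16.7%. The part of these cells in the level of Emx2 was not tested.

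Genes of other brain regions were partly below the filter. Of 13 genes of hypothalamus and thalamus 4 were tested, Nkx2-4 and Hmx2 were at 0 in all 24 organoids, and the sum of the list had a median of 105 CPM at D20 and 22.8 CPM at D30, with Lhx9, which retinal neurons also express, as its largest part. None of the 4 had r over 0.5 with the profile (median -0.29), 2 fell from D22 to D25 (median log2 fold change -0.75) and 3 fell from D20 to D30 (median -1.94). Of 14 midbrain, hindbrain and spinal cord genes 4 were tested and none had r over 0.5 (median 0.376). The sum had a median of 7.63 CPM at D20 and 52.8 CPM at D30, with up to 134 CPM in an organoid. En2, the largest part of the sum, rose from D22 to D25 (log2 fold change 1.98 ± 0.34, list median 1.60). Lmx1a rose with it from D20 to D30 (list median 2.04). Beside both lists, 7.33% of annotated genes were called higher and 2.92% lower from D22 to D25, and 25.1% and 16.7% from D20 to D30. Among the genes of this list below the filter, Hoxb2 reached 45 counts in an organoid, Pax8 43, Hoxb4 34 and Foxa2 27. The others, with Hoxa2 at up to 7, had at most 9 counts.

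The lists of retinal neurons differed from each other. Of 15 amacrine genes tested out of 18, none had r over 0.5 with the profile and 3 were below -0.5 (median -0.117), and only 1.28% of annotated genes were below -0.5. The list summed to a median of 1058 CPM at D20 and 690 CPM at D30, with Pax6 as its largest part. In the interval from D22 to D25 2 fell, Ptf1a (-4.55 ± 0.61) and Pax6 (-0.60 ± 0.14), beside 2.92% of annotated genes. From D20 to D30 2 rose and 6 fell, beside 25.1% and 16.7%. The list medians were 0.12 and 0.00462. Neurod6 had r of -0.377 with Tfap2b (rho = -0.406), -0.225 with Tfap2a (rho = -0.279) and 0.143 with Gad1 (rho = 0.069), 3 amacrine genes named after their values were seen; without the 2 organoids farthest from its median r was -0.223, -0.229 and -0.034.

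Of 14 ganglion cell genes tested out of 18, 5 had r over 0.5 and 1 was below -0.5 (median -0.065). The 5 were Thy1, Stmn2, Gap43, Nefl and Nefm, which serve axons and membranes of long projecting neurons in general. The factors Isl2 (-0.774), Pou4f1 (-0.461) and Pou4f2 (-0.424) and the synuclein gene Sncg (-0.467) went the other way. Isl2, chosen after its values were seen, had r = -0.764 with Tbr1 (rho = -0.745) and -0.753 without the 2 organoids farthest from the median of Tbr1 (n = 24), and with Neurod6 r = -0.723 (rho = -0.733) and -0.712. With Eomes it was weaker, at -0.437 (rho = -0.425) and -0.259. Gap43 rose from D22 to D25 (log2 fold change 1.47 ± 0.38), where Sncg fell (-1.57 ± 0.27), beside 7.33% and 2.92% of annotated genes. From D20 to D30 2 of the list rose and 7 fell, beside 25.1% and 16.7%. The list medians were -0.08 and -0.98. The list summed to between 202 and 950 CPM at D30 (median 757), with Stmn2 as its largest part and organoid 6, the lowest for Neurod6, also the lowest here.

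None of 12 rod and cone genes had r over 0.5, and Crx was at -0.587 (rho = -0.550); 7 rose from D22 to D25, with Gnat1, the rod transducin gene, at a log2 fold change of 3.70 ± 0.38, and 10 rose and 1 fell from D20 to D30, with list medians of 0.68 and 1.82. Of 12 bipolar genes none had r over 0.5 and Pcp2 was at -0.662. From D22 to D25 6 rose and 1 fell, led by Vsx1 (3.38 ± 0.58). From D20 to D30 7 rose and 2 fell. The list medians were 1.5 and 2.82. Beside both lists, 7.33% of annotated genes were called higher and 2.92% lower from D22 to D25, and 25.1% and 16.7% from D20 to D30. Six6, an eye field homeobox gene outside the lists and chosen after its values were seen, had r of -0.693 with Neurod6 (rho = -0.690, n = 24), and -0.591 without the 2 organoids farthest from the median of Neurod6. At D30 Six6 lay between 31.1 CPM in organoid 1 and 63.1 CPM in organoid 6, and its r with Neurod6 was -0.605 within D20, -0.083 within D22, -0.631 within D25 and -0.910 within D30 (n = 6 each). CPM are shares of a library, and the part of this in the inverse relations was not tested.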

How the data were processed

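Reads were trimmed with cutadapt (version 1.5), aligned by the authors with HISAT2 to GRCm38, and assembled with StringTie (version 1.3.3). The deposited counts are whole numbers of reads per annotated gene or assembled transcript from HTSeq (version 0.6.1), without normalization. The strand setting of the counting is not given in the sources used here. Groups and replicate numbers came from the sample labels. Summary lines were left out of library sizes. A base mean of 10 was the minimum, and the remaining features were normalized with TMM and tested in edgeR (version 4.0.16, R version 4.3.3) in a single fit of 24 organoids, with Benjamini-Hochberg adjustment over all features and a threshold of 0.01. The code was tested on simulated data. Normalized CPM used TMM-scaled library sizes, and exon lengths came from GENCODE. Symbols were matched for 46005 of 46603 annotated identifiers. From each list the text names up to 4 called genes with the largest fold change and up to 2 with the highest level per kilobase; the 3 genes most like each of the 8 and the 12 most like their profile are also named by rule. All other list genes named for a correlation, a sum or a low count were chosen after their values were seen. The 8 genes and the lists were chosen with earlier results of these data known. Alternatives were DESeq2 (version 1.42.0), other size factors, filters and features, robust estimation, a replicate block, fits of the compared timepoints alone and leaving out each organoid. No pair of organoids of a timepoint agreed within sampling noise (lowest chi-square per degree of freedom 6.35 over 60 pairs).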

Additional observations from a re-analysis of the deposited data

Results flagged for a closer look

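In 8 of 36 groups of 6 organoids (the 8 genes and their sum at 4 timepoints), the highest value stood far from the other 5, with a gap beyond the critical value of Dixon's test. No chance rate is set beside this count, since the 8 genes were chosen by their spread between these organoids and vary together. The number of such groups is therefore a description and no evidence of more extreme values than chance gives. Organoid 6 of D20 stood apart in 4 of them. It held Emx1 at 5.12 CPM against at most 0.688 in the other D20 organoids, Emx2 at 5.83 against at most 2.44, Eomes at 14.7 against at most 6.18, and a sum of 239 CPM against at most 107.

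Emx2 was also far above the others in organoid 6 of D22 (4.12 CPM against at most 0.935) and in organoid 4 of D25 (14.7 CPM against at most 3.94), the 2 organoids with the highest Reln and Trp73 of their timepoints. Bcl11b reached 43.4 CPM in organoid 1 of D25 against at most 18.1 in the others. Fezf2 reached 11.3 CPM in organoid 5 of D30 against at most 5.20 in the others, in the organoid with the highest Neurod6 and Emx2 of that timepoint.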

How the results depend on the processing

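Fezf2 from D20 to D30 passed under all 8 alternatives and all 12 fits that left out an organoid. From D20 to D22, 0 of the 8 genes were called; DESeq2 and the replicate block called 1 (Fezf2), and no filter or the compared timepoints alone called 3 (Fezf2, Neurod6, Neurod2). From D22 to D25, the 2 called genes became 0 with robust estimation and with the replicate block. From D20 to D30, 2 became 1 (Emx2 lost) with robust estimation or annotated genes only; jointly, 4 became 1 with robust estimation. Robust estimation keeps genes of unusual spread from being pulled to the common trend. Leaving out organoids gave 0 to 1, 0 to 2, 0 to 0, 1 to 2 and 2 to 6 genes in the order D22, D25, D30 against the timepoint before, D30 against D20 and joint. Features called from D20 to D22 went from 894 to 1605 in DESeq2 and from 472 to 1324 without an organoid (lowest without organoid 3 of D22), from D22 to D25 from 2478 to between 1561 and 2840 (lowest without organoid 1 of D22). The other ranges were 1165 to 1920 (D25 to D30), 11415 to 12398 (D20 to D30) and 11671 to 12846 (joint). With annotated genes alone, fewer were tested and 7311 (D30 against D20) and 7623 (joint) were called, against 12592 and 12767. Uncalled changes from D25 to D30 turned sign for Neurod2 with the replicate block (0.48 for -0.15) and Bcl11b with annotated genes only (-0.01085 for 0.07); their causes were not tested. Leaving out single organoids also turned the sign of Neurod2 in 3 and of Bcl11b in 5 of 12 fits from D25 to D30, and of Eomes in 2 of 12 from D20 to D30, none of them called. Same-numbered organoids of different timepoints did not deviate together (mean r -0.006 over 36 pairs), so replicate numbers do not pair them. With the block, Neurod6 was also not called jointly. DESeq2 and the compared timepoints alone were not run for the joint test. The median r among the 8 genes (0.606) was 0.562 to 0.633 under 4 alternatives, and within timepoints it ran from 0.235 (D22) to 0.802 (D30). Genes under about 10 counts are limited by depth, and Emx1 at 0 counts is not shown to be absent.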

Other observations

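Glial genes of the brain varied with the cortex genes over the 24 organoids. Gfap, the intermediate filament of astrocytes and of reactive Müller glia, had r = 0.759 (rho = 0.737) with the profile of the 8 genes over 24 organoids, and Aldh1l1, an astrocyte enzyme, r = 0.773 (rho = 0.772). Of 10 astrocyte and oligodendrocyte genes tested out of 12, 8 had r over 0.5 (median 0.597), beside 12.3% of annotated genes. At D30 Gfap ran from 114 CPM in organoid 6 to 2163 CPM in organoid 5 (median 644), and it was at most 19.1 CPM at D20. The list median of log2 fold change from D22 to D25 was 0.45 and Gfap did not pass (2.85 ± 0.78, edgeR adjusted p = 0.0145), and from D20 to D30 8 rose and 1 fell (median 2.12), among them Gfap (log2 fold change 7.18 ± 0.94) and the oligodendrocyte lineage genes Olig1 (4.80 ± 0.89) and Sox10 (4.66 ± 0.96). In the comparison of D30 with D20, 25.1% of annotated genes were called higher and 16.7% lower. The myelin gene Mog had at most 7 counts in an organoid, and Cspg4, also below the filter, up to 44.

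The 10 Müller glia genes had a median r of 0.449, with 4 over 0.5. Apoe (0.636) and Slc1a3 (0.631) were the highest and Rlbp1 (-0.349), the retinaldehyde-binding protein of these cells, the lowest. From D20 to D30 7 rose (median log2 fold change 1.73), and from D22 to D25 2 rose (median 0.63). Non-neural genes were mostly scarce: 8 of 14 were tested, none had r over 0.5, the 2 globin genes Hba-a1 and Hbb-bs were at 0 in all organoids, and the largest part of the list's sum was Kdr, which retinal neurons also express. From D22 to D25 the collagen gene Col1a2 rose (log2 fold change 2.26 ± 0.49), and from D20 to D30 4 rose and 2 fell. The list medians were 1.57 and 2.58. Beside both lists, 7.33% of annotated genes were called higher and 2.92% lower from D22 to D25, and 25.1% and 16.7% from D20 to D30. The part of any of these cells in the levels of the 8 genes was not tested.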
